A study of Mus musculus with 4 samples.

Results

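The mitochondrial ribosome translates the few proteins encoded in mitochondrial DNA, all of them subunits of the respiratory chain and ATP synthase. Its RNAs come from mitochondrial DNA, while its proteins are encoded in the nucleus, made in the cytosol and imported. The protein genes are named Mrps for the small subunit, which reads the messenger RNA, and Mrpl for the large subunit, which forms the peptide bond. The 76 genes described here are the rows of the count table whose symbol is Mrpl or Mrps followed by a number and at most 1 letter, out of 23481 genes in the table. All 76 passed the filter on low counts, which kept 12843 genes. By the structure of the mammalian mitochondrial ribosome, 26 of them belong to the small and 49 to the large subunit. The large-subunit count includes Mrps18a and Mrps30, which are named as small-subunit proteins but are built into the large subunit. Mrps36, now assigned to the 2-oxoglutarate dehydrogenase complex, was kept because the symbol rule holds it.

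RNA was sequenced from mouse 4T1-T breast cancer cells, a derivative of the 4T1 mammary carcinoma line, with silenced Asns, the gene of asparagine synthetase; how it was silenced is not stated. Cells grown in DMEM without asparagine gave 2 libraries, A and B, and cells grown in DMEM with asparagine gave another 2, also named A and B. Silencing of Asns was shared by all 4 libraries, and no unsilenced library was analysed here. The labels do not say whether libraries A and B were separate cultures. The p-values therefore measure only how these samples vary, and that variation may be technical.

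Counts over genes ranged from 17977552 to 30260582 per library, with both libraries without asparagine below both with it. Library A without asparagine stood apart, with 56.6% of its reads outside annotated features, against 46.3% to 49.3% in the other 3 libraries, and 3.53% of its gene counts on the ribosomal RNA precursor Rn45s, against 0.884% to 1.66%. Asns had 75.0 and 89.2 CPM (gene counts rescaled to a common library size by the TMM method) without asparagine, against 102.7 and 101.3 CPM with it, and was not called (log2 fold change -0.31, edgeR adjusted p = 0.235). The epithelial markers Krt8, Krt18, Krt19, Epcam and Cdh1 summed to 923 and 911 CPM without asparagine, and to 761 and 843 CPM with it. They did not move together. The log2 fold change was below 0 for Krt8 (-0.13) and Krt18 (-0.02), and above 0 for Krt19 (0.20), Cdh1 (0.50) and Epcam. Of these, Epcam passed the test described below (log2 fold change 0.68, edgeR adjusted p = 0.0368), and was not called with either library with asparagine left out (adjusted p = 0.555 without A and 0.384 without B). The 4 fibroblast markers summed to at most 0.588 CPM and the 3 endothelial markers to at most 0.801 CPM in any library, and of the endothelial markers only Pecam1 passed the filter for testing (log2 fold change 0.27, edgeR adjusted p = 0.793). Of the leukocyte markers Cd68 had 6.92 and 6.66 CPM without, against 5.93 and 5.60 CPM with asparagine (log2 fold change 0.24, edgeR adjusted p = 0.471), Ptprc had at most 0.467 CPM in any library, and Cd3e was at 0 in all 4. What part these library differences and markers have in the values below was not tested.

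Promoters of mitochondrial ribosomal protein genes are known for binding the nuclear respiratory factors NRF1 and GABP, of which GABP is an ETS family factor, and the factor YY1. RefSeq promoter windows (GRCm38.p6, 250 bases before to 50 after the start) were matched for 67 of the 76 genes. Not matched were Mrpl4, Mrpl13, Mrpl15, Mrpl19, Mrpl38, Mrpl54, Mrps28, Mrps34 and Mrps35. On either strand, the ETS core CGGAAG was found in 37 of the 67 (55.2%), against 18.8% of 27025 genes with a window. The background shares of motifs cover all genes with a window, tested or not, while these 67 all passed the filter. A comparison with tested genes only was not made. The YY1 core AAGATGGCG was found in 8 (11.9%, against 1.64%) and the E-box CACGTG, the site of MYC, in 5 (7.46%, against 8.09%). The composite site TGATGCAA of ATF4 and CHOP, factors of the amino acid stress response, was found in 0 of the 67 windows and in 1.03% of all genes with a window. Matches of different motifs did not overlap in the first window of any of these genes. The palindromic site of NRF1, searched as an exact match, was found in 3 windows (4.48%, against 1.07%), those of Mrpl9, Mrpl32 and Mrpl39. The motifs were chosen with results of these data known, and a match is a description of the letters only.

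The windows below were chosen after the values were seen. Mrps18b and Mrpl33 had the largest log2 fold changes among genes with a window, Mrps11 was among the 6 largest and holds a YY1 core, and Mrpl43 had the smallest. Each is written 5′ to 3′ on the strand of its gene, with matches to the ETS core (CGGAAG or CTTCCG) or the YY1 core (AAGATGGCG or CGCCATCTT) in capitals. They lie at chr17:35916391-35916690 (minus strand), chr5:31613701-31614000 (plus), chr7:78782881-78783180 (plus) and chr19:45006393-45006692 (minus).
Mrps18b: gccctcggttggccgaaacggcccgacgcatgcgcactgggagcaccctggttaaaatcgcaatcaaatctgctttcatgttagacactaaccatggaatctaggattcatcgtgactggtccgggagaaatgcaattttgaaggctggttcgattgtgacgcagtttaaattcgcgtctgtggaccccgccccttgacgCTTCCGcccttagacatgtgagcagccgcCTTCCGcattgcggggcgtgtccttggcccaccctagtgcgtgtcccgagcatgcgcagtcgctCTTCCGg
Mrpl33: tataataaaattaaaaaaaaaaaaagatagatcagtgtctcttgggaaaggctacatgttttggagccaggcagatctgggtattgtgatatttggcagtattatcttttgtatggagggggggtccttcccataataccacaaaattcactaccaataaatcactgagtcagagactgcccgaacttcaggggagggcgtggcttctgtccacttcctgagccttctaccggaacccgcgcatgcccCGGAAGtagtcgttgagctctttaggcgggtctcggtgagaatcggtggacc
Mrps11: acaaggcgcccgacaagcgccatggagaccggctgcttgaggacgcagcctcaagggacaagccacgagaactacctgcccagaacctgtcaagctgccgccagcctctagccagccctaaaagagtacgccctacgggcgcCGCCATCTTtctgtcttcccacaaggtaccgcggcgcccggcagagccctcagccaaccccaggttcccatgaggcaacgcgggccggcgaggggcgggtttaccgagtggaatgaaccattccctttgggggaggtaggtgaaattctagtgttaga
Mrpl43: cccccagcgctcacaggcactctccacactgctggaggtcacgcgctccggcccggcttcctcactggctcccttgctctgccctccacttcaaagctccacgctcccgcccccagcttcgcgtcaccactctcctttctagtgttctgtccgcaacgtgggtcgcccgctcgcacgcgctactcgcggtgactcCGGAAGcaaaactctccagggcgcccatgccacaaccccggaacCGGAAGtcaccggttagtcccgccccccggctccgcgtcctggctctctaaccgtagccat
The Mrps18b window held 3 ETS cores, the Mrpl43 window 2 and the Mrpl33 window 1, while the Mrps11 window held 1 YY1 core. Genes with an ETS core stood at both ends of the order by fold change, among windows chosen for lying there. As 55.2% of the windows of these genes hold such a core, this says little about the motif. The median log2 fold change was 0.12 for the 37 genes with an ETS core and 0.23 for the 30 genes with a window and none, and these medians were not tested.

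No mitochondrial ribosomal protein gene was called between cells without and with asparagine. The edgeR quasi-likelihood test, with Benjamini-Hochberg adjustment over all 12843 genes and a threshold of 0.05, called 0 of the 76 genes higher, where 0.771% of all genes tested were called higher, and 0 lower, where 1.07% were called lower. The adjusted p ranged from 0.0746 for Mrps18b to 0.989 for Mrps12. At an unadjusted p under 0.05, 14 of the 76 were higher and 0 lower, against 8.65% and 9.48% of all genes. DESeq2 and limma-voom also called 0 of the 76. On simulated counts with the same spread in both groups, unlike these libraries, the edgeR test called 2% of 1.2-fold and 24% of 1.5-fold changes. An absent call therefore does not show that a gene was unchanged. In bulk RNA, fewer cells of a type and less RNA per cell cannot be told apart.

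The values of these genes were mostly on the higher side in cells without asparagine, by small amounts. The log2 fold change, coded as without minus with asparagine, was above 0 for 65 of the 76 genes, against 51.4% of all genes tested. Its median was 0.17 over the 76 genes and 0.01 over all genes tested. In 46 of the 76 both libraries without asparagine were above both with it, and in 2, Mrps6 and Mrpl53, both were below, against 26.1% and 26.4% of all genes. The remaining 28 overlapped between the groups. The 76 genes share their libraries and scaling and are not independent, so these counts are given with no test.

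**Figure D1:**
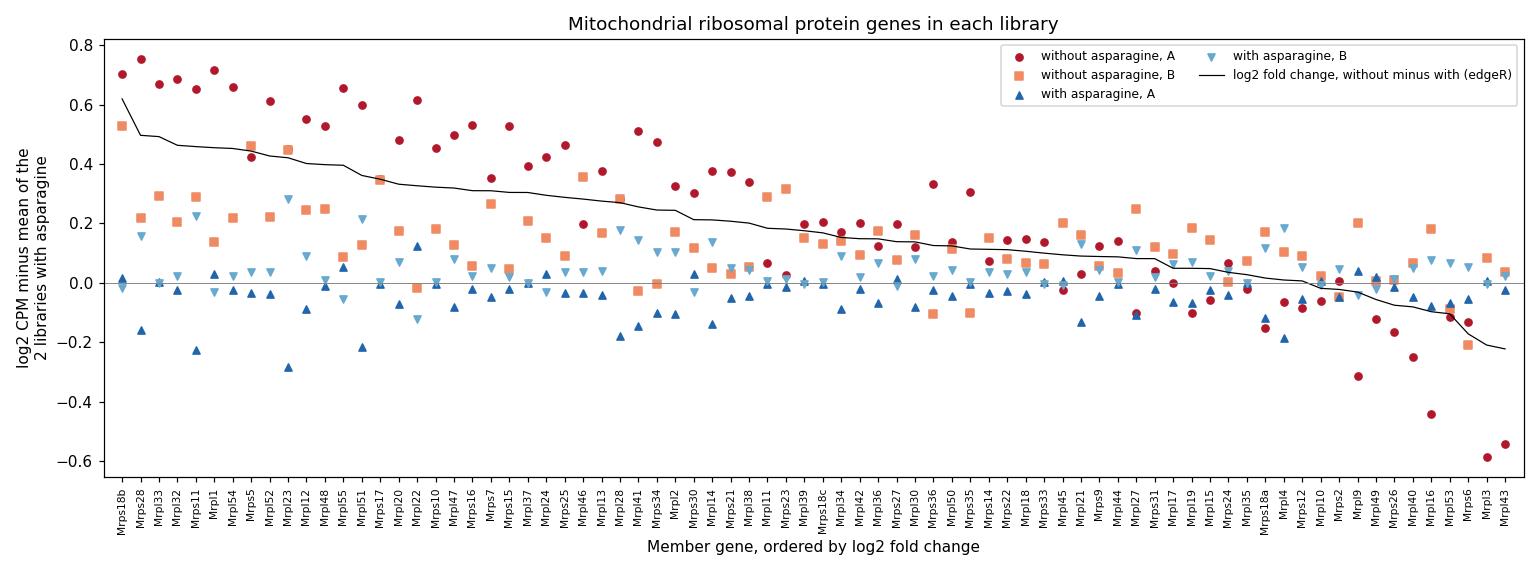
Log2 CPM of each of the 76 genes in each library, relative to the mean of the 2 libraries with asparagine (vertical axis), ordered by log2 fold change from edgeR (line). Libraries without asparagine are red circles (A) and orange squares (B), and those with asparagine are blue triangles. Library A without asparagine holds both the highest and the lowest points, at Mrps28 (0.75) and Mrpl3 (-0.59).

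Summed over the 76 genes, the level was 2600 CPM (A) and 2523 CPM (B) without asparagine, against 2246 CPM (A) and 2374 CPM (B) with it. Both sums without asparagine were above both with it. The means were 2562 ± 54.6 CPM without and 2310 ± 90.7 CPM with asparagine (SD, n = 2 each), a ratio of 1.11, and an exact two-sided permutation test of 2 libraries against 2 cannot go below p = 0.33. As a share of gene counts the genes took 0.265% and 0.250% without asparagine, and 0.224% and 0.235% with it. The Wilson 95% intervals of these shares were 0.263% to 0.268%, 0.248% to 0.252%, 0.222% to 0.226% and 0.233% to 0.237% in the same order, and cover counting error only.

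Single libraries without asparagine differed in spread. Relative to the mean of the libraries with asparagine, 58 of the 76 genes were higher in library A without asparagine (51.2% of all genes tested) and 68 in library B (50.7% of all). The medians were 0.20 for library A and 0.13 for library B on the log2 scale, against 0.01 and 0.0032 over all genes tested, and both rest on the same libraries with asparagine. The gap between the libraries of a group, in absolute log2 units, had a median of 0.21 without and 0.07 with asparagine, and it was larger without asparagine for 57 of the 76. Over all genes tested the median gap was 0.22 without and 0.10 with asparagine. Leaving out library A without asparagine gave a median of 0.13 and 68 genes above 0, and leaving out library B of the same group gave a median of 0.20 and 57 genes above 0.

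Calls depended on which library was left out, for these genes as for all genes. Without library A of the asparagine-free cells, 6 of the 76 genes were called higher and 0 lower, where 6.94% and 8.70% of all genes were called. The share of the 76 called higher, 7.89%, was thus near that of all genes. The 6 were Mrpl11, Mrpl33, Mrps5, Mrps7, Mrps17 and Mrps18b. Without library B of the same group, 32 were called higher and 4 lower, where 18.9% and 21.6% of all genes were called, and the 4 lower were Mrpl3, Mrpl9, Mrpl16 and Mrpl43. Without library A with asparagine 0 were called in either direction, with 0.212% of all genes called higher and 0.227% lower. Without library B with asparagine 0 were called as well, with 0.182% of all genes called higher and 0.182% lower. With a single library left in a group, that library is assumed to vary like the other group. With no filter on low counts 5 genes were called higher (Mrpl1, Mrpl32, Mrpl33, Mrps18b and Mrps28) and 0 lower, where 3.10% and 3.63% of all 19828 genes were called.

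Mrps18b, which encodes a relative of bacterial ribosomal protein S18, had the largest log2 fold change and the smallest p. Its level was 22.02 and 19.5 CPM without asparagine, against 13.7 and 13.3 CPM with it. Both libraries without asparagine were above both with it, and libraries of a group lay close together. The log2 fold change was 0.62 ± 0.13 (SE), with a 95% interval of 0.31 to 0.93, and missed the threshold (edgeR adjusted p = 0.0746). With DESeq2 the adjusted p was 0.0504, and over the libraries left out in turn the log2 fold change ranged from 0.53 to 0.70. The gene lies on chromosome 17 from 35910379 to 35916389 (GENCODE M21, GRCm38), and its exons overlap those of Gm16279 on the opposite strand, so reads of that gene could be included. The promoter window printed above was placed by a RefSeq start and lies wholly upstream of these coordinates.

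Its paralogues stood nearer to 0. Mrps18c, the small-subunit paralogue, had 6.27 and 5.95 CPM without asparagine, against 5.42 and 5.44 CPM with it, a log2 fold change of 0.17 ± 0.17 (SE, 95% interval -0.23 to 0.56, edgeR adjusted p = 0.622). Mrps18a, the paralogue built into the large subunit, had 12.8 and 16.1 CPM without, against 13.1 and 15.4 CPM with asparagine. The groups of Mrps18a overlapped, with a log2 fold change of 0.02 ± 0.16 (SE, 95% interval -0.37 to 0.40, edgeR adjusted p = 0.967). The differences between the paralogues' fold changes were not tested.

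Among the other small-subunit genes, Mrps5, Mrps17 and Mrps7 had high values in both libraries without asparagine, and they were chosen after their values were seen. Mrps5, which encodes a relative of bacterial S5, had 17.55 and 17.98 CPM without asparagine, against 12.7 and 13.4 CPM with it (log2 fold change 0.44 ± 0.12 SE, edgeR adjusted p = 0.146). Mrps17 had 52.0 and 51.9 CPM without, against 40.7 and 40.9 CPM with asparagine (0.35 ± 0.10 SE, edgeR adjusted p = 0.155). In these genes libraries of a group differed little, and the groups did not overlap. Mrps7, whose product belongs to the head of the small subunit, had 54.6 and 51.4 CPM without, against 41.3 and 44.2 CPM with asparagine (0.31 ± 0.11 SE, edgeR adjusted p = 0.203). Exons of Mrps7 overlap those of Gga3 and Mif4gd on the opposite strand.

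Mrps28 and Mrps11 differed more between the libraries of each group. Mrps28 had 19.9 and 13.7 CPM without asparagine, against 10.6 and 13.2 CPM with it, a log2 fold change of 0.50 ± 0.21 (SE, edgeR adjusted p = 0.274) that was 0.20 without library A of the asparagine-free cells. Mrps11, whose product lies on the platform of the small subunit, had 9.81 and 7.60 CPM without, against 5.30 and 7.27 CPM with asparagine (0.46 ± 0.22 SE, edgeR adjusted p = 0.322), and its fold change was 0.26 without library A of the asparagine-free cells and 0.25 without library A with asparagine. In both genes library B without asparagine lay only slightly above library B with it.

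Mrps6 had the lowest log2 fold change of the small subunit, and Mrps12 lay near 0. Mrps6, whose product lies on the platform, had 53.5 and 50.7 CPM without asparagine, against 56.4 and 60.9 CPM with it, a log2 fold change of -0.17 ± 0.11 (SE, 95% interval -0.42 to 0.08, edgeR adjusted p = 0.423). Both libraries without asparagine were below both with it. Exons of Mrps6 overlap those of the inositol transporter gene Slc5a3 on the same strand. The groups of Mrps12, whose product lies at the decoding centre, overlapped. Mrps12 had 3.87 and 4.38 CPM without, against 3.95 and 4.27 CPM with asparagine, with a log2 fold change of 0.0068 ± 0.20 (SE, 95% interval -0.46 to 0.47, edgeR adjusted p = 0.989).

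In the large subunit the largest log2 fold changes were those of Mrpl33, Mrpl32 and Mrpl1. Mrpl33, which encodes a very short protein, had 62.9 and 48.5 CPM without asparagine, against 39.6 and 39.5 CPM with it, a log2 fold change of 0.49 ± 0.14 (SE, 95% interval 0.15 to 0.83, edgeR adjusted p = 0.155). Mrpl32, whose product is matured by the m-AAA protease of the inner membrane, had 34.2 and 24.5 CPM without, against 20.9 and 21.6 CPM with asparagine (0.46 ± 0.17 SE, edgeR adjusted p = 0.228). Mrpl1, of the mobile L1 stalk, had 47.6 and 31.8 CPM without, against 29.5 and 28.3 CPM with asparagine (0.46 ± 0.19 SE, edgeR adjusted p = 0.269). In all 3 genes both libraries without asparagine were above both with it, and library A was the higher of the pair. Without that library the log2 fold change was 0.29 for Mrpl33, 0.20 for Mrpl32 and 0.14 for Mrpl1. Exons of Mrpl33 overlap those of Gm43809 on the same strand.

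The flexible stalk, which recruits translation factors, is built by the products of Mrpl10 at its base and Mrpl12 at its tip, and Mrpl11 shapes the binding site of the translation GTPases beside it. Mrpl12, whose product also binds the mitochondrial RNA polymerase, had 46.9 and 37.9 CPM without asparagine, against 30.1 and 34.0 CPM with it (0.40 ± 0.14 SE on the log2 scale, 95% interval 0.07 to 0.74, edgeR adjusted p = 0.210). Mrpl11 had 31.7 and 36.9 CPM without, against 30.1 and 30.4 CPM with asparagine (0.18 ± 0.12 SE, edgeR adjusted p = 0.450). Mrpl10 had 35.6 and 37.8 CPM without, against 37.4 and 37.0 CPM with asparagine (-0.02 ± 0.11 SE, 95% interval -0.27 to 0.23, edgeR adjusted p = 0.944). The values of Mrpl12 and Mrpl11 did not overlap between groups, and those of Mrpl10 did. Without library A of the asparagine-free cells the log2 fold change of Mrpl12 was 0.24, and without library B of that group that of Mrpl11 was 0.07.

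Mrpl44, whose product has the fold of RNase III, had 20.7 and 19.2 CPM without asparagine, against 18.7 and 18.8 CPM with it (log2 fold change 0.09 ± 0.12 SE, edgeR adjusted p = 0.724). Mrpl45, whose product contacts the inner membrane near the exit of the nascent chain, had 38.8 and 45.3 CPM without, against 39.6 and 39.2 CPM with asparagine (0.09 ± 0.12 SE, edgeR adjusted p = 0.697). The groups overlapped for Mrpl45 and, by a narrow margin, did not for Mrpl44, and leaving out library A of the asparagine-free cells put the log2 fold change of Mrpl44 at 0.03.

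In Mrpl43, Mrpl3 and Mrpl16, which were among the 4 lowest large-subunit genes by fold change, library A without asparagine stood below the other libraries. Mrpl43 had 27.7 and 41.5 CPM without asparagine, against 39.8 and 41.1 CPM with it, a log2 fold change of -0.22 ± 0.19 (SE, edgeR adjusted p = 0.552) that was 0.03 without library A. Mrpl3, a core protein of the large subunit, had 26.9 and 42.8 CPM without, against 40.5 and 40.2 CPM with asparagine (-0.21 ± 0.20 SE, edgeR adjusted p = 0.616), or 0.08 without library A. Mrpl16 had 37.9 and 58.5 CPM without, against 48.8 and 54.4 CPM with asparagine (-0.10 ± 0.20 SE, edgeR adjusted p = 0.822), or 0.18 without library A. In these 3 genes library A was the lowest and library B the highest of the 4 libraries.

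Mrpl40, of the central protuberance, had 16.7 and 20.8 CPM without, against 19.2 and 20.5 CPM with asparagine (-0.08 ± 0.15 SE, edgeR adjusted p = 0.798, or 0.06 without library A without asparagine). Mrpl53 had 24.3 and 24.7 CPM without, against 25.1 and 27.6 CPM with asparagine (-0.10 ± 0.12 SE, edgeR adjusted p = 0.660), and was the large-subunit gene with both libraries without asparagine below both with it. Exons of Mrpl43 overlap those of Twnk, the gene of the mitochondrial DNA helicase, on the opposite strand, and exons of Mrpl53 overlap those of Gm42688 on the same and Ccdc142os on the opposite strand.

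By subunit, the medians were close to each other. The median log2 fold change was 0.17 over the 26 small-subunit genes, 23 of them above 0, and 0.18 over the 49 large-subunit genes, 41 of them above 0. The summed level of the small subunit was 808 and 752 CPM without asparagine, against 682 and 714 CPM with it. That of the large subunit was 1781 and 1763 CPM without, against 1556 and 1651 CPM with asparagine. The difference between the subunits was not tested.

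**Figure D2:**
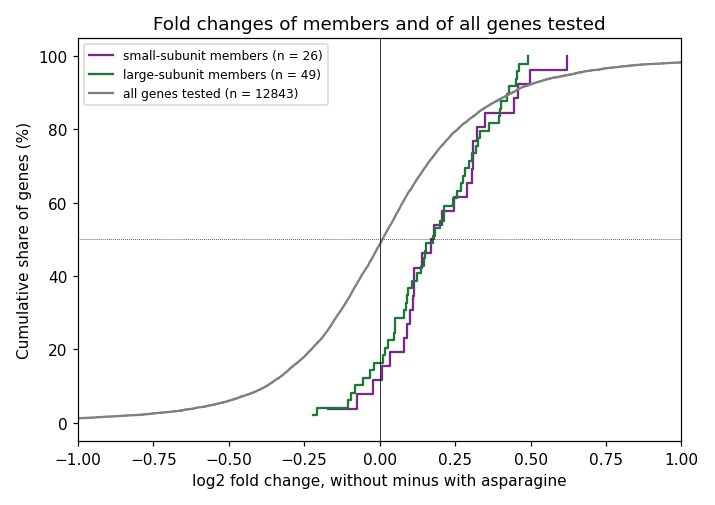
Cumulative share of genes (%) by log2 fold change, without minus with asparagine, for the 26 small-subunit genes, the 49 large-subunit genes and all 12843 genes tested, cropped to 1 on either side of 0. The subunit curves lie to the right of the curve of all genes over most of their range, with medians of 0.17 and 0.18 against 0.01.

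For these libraries, the intervals limited how large a difference between the groups could be. For 75 of the 76 genes the 95% interval of the fold change lay within a 2-fold difference in either direction, the exception being Mrpl23 (3.27 and 3.27 CPM without, 1.93 and 2.90 CPM with asparagine, 95% interval -0.20 to 1.04), and for 46 it lay within a 1.5-fold difference. The log2 fold change of Mrpl23 was 0.17 without library A with asparagine and 0.75 without library B with asparagine. These intervals are not adjusted for the number of genes. They rest on variation between libraries that may be technical, so they do not bound the effect of asparagine across separate cultures. Reads per gene ranged from 46, for Mrpl23 in library A with asparagine, to 4127, for Mrpl13 in library B with asparagine. The standard error from counting alone was thus at most 14.7% of a value.

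Levels per length differed widely among genes whose products are assembled into 1 particle. The mean over the 4 libraries ran from 0.983 CPM per kb of exon for Mrpl48 to 121 CPM per kb for Mrpl13, a ratio of 123, with a median of 16.3. The highest were Mrpl13 (142 and 123 CPM per kb without, 106 and 113 with asparagine) and Mrpl33 (132 and 101 without, 82.8 and 82.6 with asparagine). They were followed by Mrpl18 (97.4 and 92.0 without, 85.8 and 90.1 with asparagine) and Mrps6 (63.3 and 60.0 without, 66.7 and 72.0 with asparagine). In CPM, the log2 fold change of Mrpl13 was 0.28 ± 0.11 (SE, edgeR adjusted p = 0.266) and that of Mrpl18 0.11 ± 0.10 (SE, edgeR adjusted p = 0.604). Without library A of the asparagine-free cells they were 0.17 and 0.06. Mrpl13 was the highest and Mrps6 the lowest of these 4 in every library, and Mrpl33 was above Mrpl18 without asparagine and below it with asparagine. The order of levels per kb was close to the same in every library, with Spearman correlations between pairs of libraries of 0.957 to 0.993 over the 76 genes, as a description. Exons of Mrpl13 and Mrpl18 overlap those of Mtbp and Tcp1 on the opposite strand. A long annotated exon set, as for Mrpl48 (4696 bases), lowers the level per kb.

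**Figure D3:**
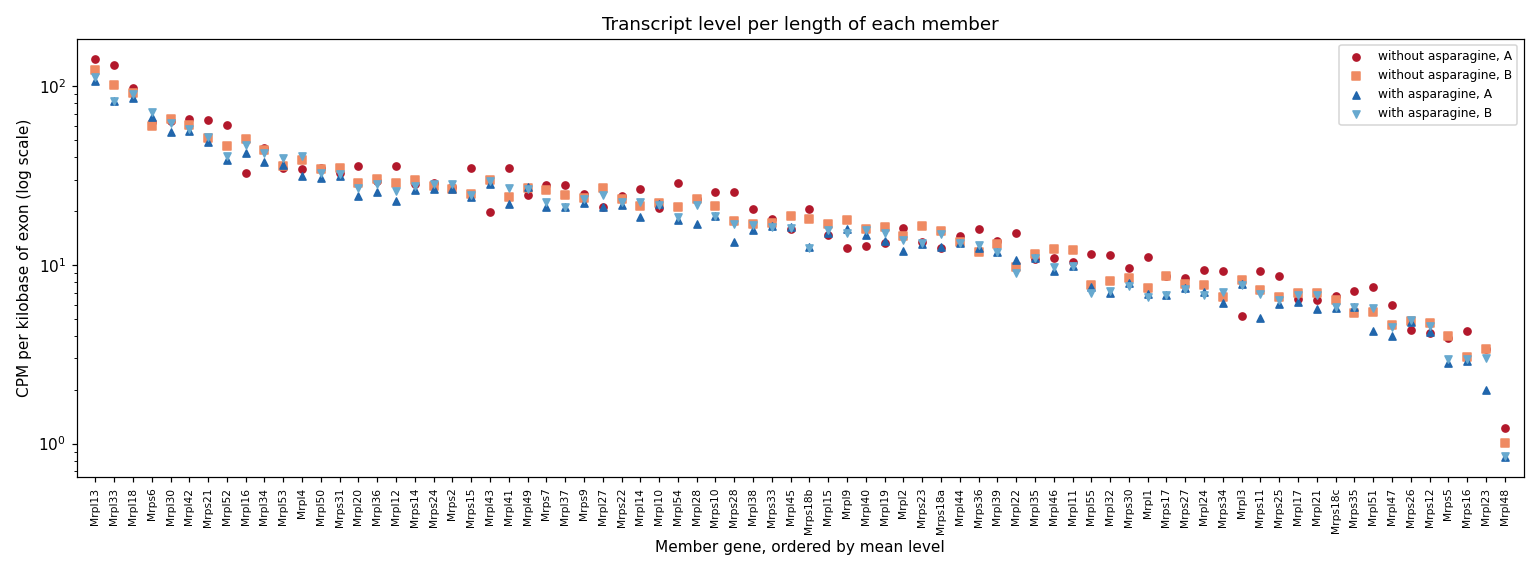
CPM per kilobase of exon on a log axis for each of the 76 genes in each library, ordered by the mean level, with the same symbols for the libraries as in the plot by library. Levels run from a mean of 0.983 for Mrpl48 to 121 for Mrpl13, and the 4 libraries of a gene lie close together against this range.

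Over all genes tested, transcript length moved with the fold change, and most of the 76 genes are short. Their exons spanned a median of 1340 bases, against 3218 over the 12728 tested genes with a length in GENCODE M21. The Spearman correlation of log2 fold change with length was -0.208 over those 12728 genes and -0.142 over the 76, as a description. Taken by library, relative to the mean with asparagine, it was -0.205 for library A without asparagine and 0.070 for library B over the 76. Over all tested genes it was -0.211 and -0.150. Among the 76, genes under 1000 bases had medians of 0.37 (A) and 0.09 (B). Those over 2000 bases had 0.17 and 0.13. All tested genes under 1000 bases had a median log2 fold change of 0.22, those of 1000 to 2000 bases 0.06 and longer ones -0.02. The ribosomal protein genes in the same classes had medians of 0.21 (22 genes), 0.14 (30 genes) and 0.15 (24 genes). With an offset for length in each library, the median over all 76 was 0.10, with 53 above 0. At an unadjusted p under 0.05, 7 were higher and 2 lower, and 0 were called. Over all 12728 genes in that fit the median was 0.0076, with 0.778% called higher and 1.04% lower. The shares of all genes above 0 or under that unadjusted p in this fit are not given, so those counts have no background here. The medians by class were then 0.0046, 0.06 and 0.15, so the median of the shortest genes moved to about 0 and that of the longest did not. Of the 22 genes under 1000 bases 11 were above 0, against 20 before. The offset takes out the trend with length over all genes, so lower values of short genes are built into it. Mrps17 and Mrps5, with 6003 and 4481 bases, had log2 fold changes of 0.41 and 0.49 under this offset, and Mrpl33, with 478 bases, had 0.23. Under the offset the log2 fold change was 0.30 for Mrps28, 0.16 for Mrpl13 and 0.17 for Mrpl46, and it was further below 0 for Mrps6 (-0.34), Mrpl53 (-0.30), Mrpl16 (-0.20) and Mrpl40 (-0.17). Of the 76 genes 12 turned direction under it.

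**Figure D4:**
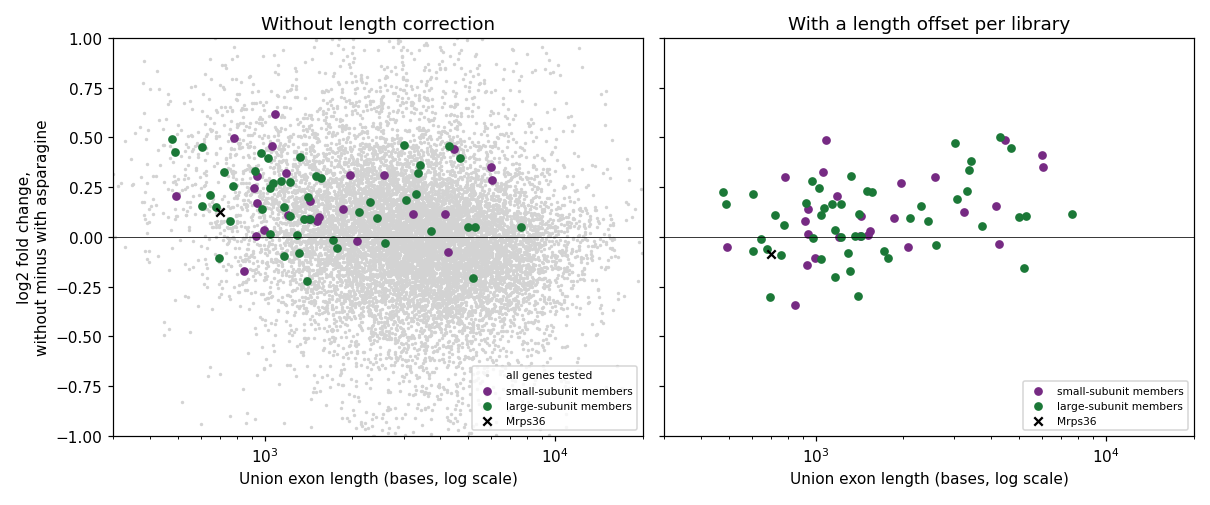
Log2 fold change, without minus with asparagine, against union exon length (bases, log axis) for small-subunit genes, large-subunit genes and Mrps36, over all genes tested in grey (left) and after an offset for length in each library (right), cropped to 1 on either side of 0. The medians of the 22 genes under 1000 bases are 0.21 on the left and 0.0046 on the right, and those of the 24 genes over 2000 bases are 0.15 on both sides.

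Exons of 25 of the 76 genes overlap those of another gene, 21 of them on the opposite strand, and the sources used here do not state whether counting used strand. The 51 genes with no such overlap had a median log2 fold change of 0.18, with 47 above 0. Pseudogenes named after Mrpl23, Mrpl27, Mrpl48 and Mrps36 are annotated in the mouse genome, so the share of reads that belongs to these 4 genes is uncertain.

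Many of these genes start close to a neighbour on the opposite strand, and whether they share a promoter was not tested. In GENCODE M21 the start of 24 of the 76 genes (31.6%) lies within 500 bases of the start of a protein-coding gene on the opposite strand, against 8.91% of all 21951 protein-coding genes. That background covers genes tested or not, while the 76 all passed the filter, and tested genes alone were not compared. Mrpl46 and Mrps11, which belong to different subunits, form a pair of close opposite starts on chromosome 7, and their annotated spans overlap at the starts. Mrpl46 had 12.4 and 13.8 CPM without asparagine, against 10.5 and 11.04 CPM with it (log2 fold change 0.28 ± 0.14 SE, edgeR adjusted p = 0.336), beside 0.46 for Mrps11. By GENCODE starts, which differ from the RefSeq start used for its window, Mrps18b starts 45 bases from Ppp1r10. Ppp1r10 encodes a regulatory subunit of a protein phosphatase. Ppp1r10 averaged 72.3 CPM without and 72.2 CPM with asparagine (a log2 fold change of 0.0020, edgeR adjusted p = 0.993), beside 0.62 for Mrps18b. These pairs were chosen after their values were seen.

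Among the other genes of mitochondrial translation, the edgeR test with all 4 libraries called 0 in either direction, and so did DESeq2 and limma-voom. Medians ranged from 0.06 for translation factors to 0.24 for mitochondrial DNA transcription and replication. At an unadjusted p under 0.05, 0 of the ribosome genes with other names were higher and 1 gene each of the 3 further lists, with 0 lower in any. Over all genes tested the shares were 8.65% higher and 9.48% lower. Of the 7 mitochondrial ribosome genes with other names, Dap3, Ptcd3, Chchd1, Aurkaip1, Gadd45gip1, Ict1 and Mrp63, all 7 had a log2 fold change above 0, with a median of 0.19 and 0 called in either direction. Ptcd3, a pentatricopeptide repeat protein of the small subunit, had 111 and 106 CPM without asparagine, against 99.4 and 90.6 CPM with it (0.20 ± 0.11 SE, or 0.13 without library B with asparagine, edgeR adjusted p = 0.371). Of 15 translation factors and mRNA regulators 10 were above 0 (median 0.06), with the smallest p for Slirp, an RNA-binding protein that stabilises mitochondrial mRNA (0.41, or 0.24 without library A of the asparagine-free cells, edgeR adjusted p = 0.247). Of 27 assembly and ribosomal RNA modification genes 18 were above 0 (median 0.08), with the smallest p for Fastkd2 (0.28, edgeR adjusted p = 0.233). Among 8 genes of mitochondrial DNA transcription and replication 6 were above 0 (median 0.24), and Polrmt, the mitochondrial RNA polymerase, had 20.6 and 20.2 CPM without, against 16.3 and 16.9 CPM with asparagine (0.30 ± 0.12 SE, edgeR adjusted p = 0.257).

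The lists of protein import, chaperones and proteases, and regulators had 0 calls in either direction in the edgeR test. At an unadjusted p under 0.05, 6, 3 and 2 of their genes were higher and 0 lower, against 8.65% and 9.48% of all genes tested. Other fits called some of them higher and 0 lower. DESeq2 called Timm9, Myc and Pprc1, where 1.5% of all genes were called higher and 2.11% lower. The fit with the letter as a block called Timm9, Atf5 and Pprc1, where 2.68% and 3.68% of all genes were called. The fit with no filter on low counts called Timm9, Timm13, Tomm7, Atf5, Myc and Pprc1, where 3.10% and 3.63% of all genes were called. In limma-voom 0 of them were called. With a library without asparagine left out, several of these lists and of the translation lists had calls, some higher and some lower. Of 20 protein import genes 15 were above 0 (median 0.13), with the smallest p for Timm9, a chaperone of the intermembrane space (51.1 and 36.0 CPM without, 26.8 and 26.8 CPM with asparagine, 0.70 ± 0.17 SE, edgeR adjusted p = 0.114). Without library A of the asparagine-free cells the log2 fold change of Timm9 was 0.43. Of 11 chaperones and proteases 5 were above 0 (median -0.0033), and Atf5, a transcription factor of the mitochondrial unfolded protein response, had 14.01 and 10.2 CPM without, against 6.39 and 7.61 CPM with asparagine (0.78 ± 0.20 SE, edgeR adjusted p = 0.127). Of 10 tested regulators of nuclear genes for mitochondria 5 were above 0 (median -0.0095), with the smallest p for Myc, whose targets include genes of ribosome production. Myc had 719 and 657 CPM without asparagine, against 485 and 520 CPM with it (0.45 ± 0.11 SE, edgeR adjusted p = 0.107). Nrf1 (0.05), Gabpa (-0.22) and Yy1 (-0.05) are among the genes of the factors whose motifs were searched. Their edgeR adjusted p-values were 0.835, 0.469 and 0.831 in the same fit, and they were chosen after their values were seen. Gabpb1 (-0.06, edgeR adjusted p = 0.781) and Gabpb2 (-0.16, edgeR adjusted p = 0.555), further genes of GABP, were also in this list. The genes of ATF4 and CHOP were not.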

How the data were processed

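The submitters' processing notes name Bowtie2, HTSeq and the build mm10. Per the labels' protocols RNA was purified with a Qiagen kit and amplified with a NuGEN Ovation kit. The sources used here do not state versions, annotation or strand setting. The authors deposited raw counts of reads per gene in 1 table of 4 libraries. Its 5 HTSeq summary rows (60.1% to 70.0% of reads) entered neither the library sizes nor the tests.

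Genes passing filterByExpr (minimum count 10, minimum total count 15) entered TMM scaling and the quasi-likelihood test of edgeR 4.0.16 (glmQLFTest, group as the only term, Benjamini-Hochberg adjustment over all genes tested, threshold 0.05). Standard errors (SE) were derived from each fold change and its F statistic. CPM are on TMM-scaled totals, and log2 CPM used a prior count of 2. Lengths and overlaps are of union exons in the GENCODE M21 basic set. Alternatives were limma-voom (limma 3.58.1), DESeq2 1.42.0 and its size factors, upper quartile scaling, no filter on low counts, a stricter one (5 CPM in 2 libraries), the 10 most abundant genes left out, a loess offset on length, the letter as a block and each library left out. The test was tried on simulated data with 50 changed genes at each fold and the same spread in both groups. It called 2% of 1.2-fold, 24% of 1.5-fold, 82% of 2-fold and 100% of 4-fold changes.

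The genes and lists were chosen with earlier results of these data known. Values per library are given for the top 6 and bottom 6 genes by log2 fold change, the top 4 by level per kb and 9 landmark genes. Each other list is represented by its called genes or, with none, by the gene of lowest p.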

Additional observations from a re-analysis of the deposited data

How the results depend on the processing

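The median log2 fold change of the 76 genes stayed above 0 under all 13 alternatives, and 41 of the 65 genes above 0 were tested and above 0 under each of them (the stricter filter kept 73 of the 76). With the length offset the median was 0.10. Counts of calls moved. The 76 genes had 5 called higher with no low-count filter, and between 0 and 32 called higher and 0 and 4 lower with a library left out. Over all genes, 193 were called higher and 271 lower with DESeq2, 615 and 719 with no filter, and between 24 and 2502 higher and 24 and 2861 lower with a library left out.

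The letters A and B are not said to mark a shared batch, so they do not pair the libraries. With the letter as a replicate block, 2 of the 76 genes (Mrpl33 and Mrps18b, adjusted p = 0.0406 and 0.0171) were called higher where 2.68% of all genes were, with 344 higher and 472 lower in all. The A minus B differences of the 2 groups had a correlation of 0.12 over all genes tested.

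Over all 76 genes, 3 turned direction with upper quartile scaling (Mrpl9, Mrpl10 and Mrps2), 12 with the length offset, between 1 and 13 with a library left out, and 0 under the other 7 alternatives. None of the genes that turned was called in any fit with all libraries in. Among the genes given with values per library these were Mrpl10 with upper quartile scaling (0.029), and Mrpl18, Mrps12 and Mrps18a with the length offset (-0.0028, -0.14 and -0.11). With a library left out the log2 fold change ran from -0.065 to 0.021 for Mrpl10, from -0.45 to 0.18 for Mrpl16, from -0.59 to 0.083 for Mrpl3, from -0.26 to 0.064 for Mrpl40 and from -0.55 to 0.034 for Mrpl43. It ran from -0.026 to 0.20 for Mrpl45, from -0.094 to 0.087 for Mrps12, from -0.17 to 0.16 for Mrps18a and from -0.00027 to 0.65 for Pecam1. The causes were not tested.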
